A study of Mus musculus with 18 samples.

Results

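The thymus of 24 month old mice was compared with that of 6 month old mice through the gene expression of isolated thymocytes, the developing T cells that fill the organ. Each of 9 Agilent 2-colour arrays carried Cy3-labelled RNA of a C57BL/6 mouse aged 6, 16 or 24 months, 3 mice per age, and Cy5-labelled RNA of 1 month old C57BL/6 mice, so that the series holds 18 samples, 1 for each channel. The comparison rests on 6 of these, the Cy3 samples labelled 24 months (3) and 6 months (3), each as a log2 ratio to the 1 month channel of its array. A positive log2 ratio means more Cy3 signal of the older mouse than Cy5 signal of 1 month. The difference between ages is the mean log2 ratio at 24 months minus the mean at 6 months. The dyes were never swapped, but every array ran the same way, so a dye effect is shared by both ages. The level of a single ratio may hold that effect and is not read as a change since 1 month. The cells were the whole suspension that passed a strainer after a wash against fat cells and lysis of red cells, with no sort, and the labels give no genotype, treatment or sex. The labels number the 1 month mice while the design text speaks of a pool, and neither reading could be checked here. The 16 month arrays entered the fit for the spread, and their values are given beside the others.

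The thymus shrinks through adult life, a process called involution, in which its epithelium, the scaffold that teaches and selects T cells, thins and is partly replaced by fat. Thymocytes pass from an early progenitor stage through a double-positive stage, with CD4 and CD8 on the same cell, to mature single-positive cells that leave for the blood. Small numbers of B cells, plasma cells, dendritic cells, macrophages and resident or returning mature lymphocytes share the organ. In such a bulk suspension fewer cells of a type and less RNA per cell cannot be told apart, and the same holds for more cells and more RNA.

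No probe differed between 24 and 6 months after adjustment. With limma and Benjamini-Hochberg adjustment over all tested probes, 0 of 37315 (0%) passed an adjusted p of 0.05, and the smallest adjusted p was 0.196. At an unadjusted p under 0.05 stood 3401 probes (9.11%), of which 1366 (3.66%) were higher and 2035 (5.45%) lower at 24 months. On 2147 probes (5.75%) all 3 arrays of 24 months lay above all 3 of 6 months, and on 3718 (9.96%) all 3 lay below. Among the 15317 tested genes with a symbol, with 1 probe each, the arrays were apart upward for 962 (6.28%) and downward for 1523 (9.94%), and at an unadjusted p under 0.05 stood 551 higher (3.6%) and 817 lower (5.33%). Differences were mostly small: 304 tested probes exceeded 2-fold, and the median standard error (SE) of a difference was 0.126 on the log2 scale. The values below are therefore given as measured, with counts read against these shares, and none is a call. In the same fit 16 against 6 months, which shares the 6 month arrays, had 0 probes past the threshold and 2375 at an unadjusted p under 0.05 (6.36%). For 24 against 16 months, which shares the 24 month arrays, the counts were 0 and 1784 (4.78%).

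The arrays of an age were not alike. Of the non-control features 79.6% to 94.2% were well above background in Cy3, with the lowest share on replicate 2 of 24 months and the highest on replicate 1 of 6 months, and the median spread within an age was larger at 24 months (SD 0.154) than at 6 months (SD 0.119). All 16 thymocyte markers checked, among them Cd3e, Cd4, Cd8a, Rag1 and Dntt, were well above background on all 6 arrays. Markers of other cells were detected as well, including all 4 of B cells, all 5 of macrophages and 4 of 5 of thymic epithelium, where Psmb11 was not well above background on any array. Haemoglobin, the oxygen carrier of red cells, had a mean log2 ratio over 6 probes of -1.74, -1.72 and -1.09 at 6 months and of -1.63, 0.42 and 1.35 at 24 months. Replicates 2 and 3 of 24 months were thus above every 6 month array, while replicate 1 lay within their range, and a value on replicate 1 is a measurement at 24 months without raised haemoglobin.

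The 8 genes with the smallest p in each direction differed by 1.25-fold to 3.42-fold. Trpm2, a calcium-permeable channel opened by ADP-ribose and oxidants, had log2 ratios of -0.09, -0.21 and -0.19 at 6 months and of 0.77, 0.51 and 0.64 at 24 months. The groups did not overlap, and the difference of 0.80 (SE 0.09, n = 3 arrays per age) is 1.74-fold, with a limma adjusted p of 0.196. Slc1a3, a glutamate transporter, stood at -0.61, -0.33 and -0.20 at 6 months and at 0.48, 0.48 and 0.20 at 24 months, a difference of 0.76 (SE 0.13). Tmem107, a protein of the ciliary transition zone, stood at -0.89, -0.61 and -0.65 and then at 0.41, 0.05 and 0.19, a difference of 0.93 (SE 0.15). For both, every 24 month mouse was above every 6 month mouse. Cyp2j6, a cytochrome P450, Sptbn4, a spectrin, and Kcnj12, an inward rectifier potassium channel, were higher by 0.41 (SE 0.06), 0.53 (SE 0.08) and 0.39 (SE 0.07). Jchain and Krt18 complete the 8 and are described with their groups. All 8 of these adjusted p values lay between 0.196 and 0.331.

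Among the genes lower at 24 months Adcy2, an adenylyl cyclase, had log2 ratios of 0.33, 0.00 and -0.04 at 6 months against -0.57, -0.44 and -0.66 at 24 months. Its difference was -0.66 (SE 0.11), the largest of these 8 downward, and both of its probes ran the same way. Psma4, a subunit of the proteasome core, was almost constant at 6 months (0.37, 0.41 and 0.39) and stood at -0.07, -0.05 and 0.06 at 24 months, a difference of -0.41 (SE 0.07) shared in sign by its 2 probes. Snrnp48, a protein of the minor spliceosome, stood at 0.16, 0.06 and 0.17 against -0.29, -0.17 and -0.22. Pde12, a mitochondrial phosphodiesterase that removes poly(A) tails, stood at 0.26, 0.22 and 0.31 against 0.00, -0.12 and -0.05. Fgfr1op2 (-0.38, SE 0.07), Tspyl4 (-0.36, SE 0.08) and 2610044O15Rik8 (-0.45, SE 0.10) also had no overlap between the ages. Pmis2 stood at 0.11, -0.04 and -0.02 against -0.39 and -0.54 on the 2 arrays of 24 months that measured it, the spot of replicate 3 being marked as an outlier. It differed by -0.48 (SE 0.09), and by 0.094 when the arrays were centred on their medians in place of the dye normalization. The limma adjusted p values of these 8 lay between 0.331 and 0.42. For all 16 genes, chosen on the 24 against 6 month contrast, the 16 month mean lay between the means of the other ages, as the plot of their log2 ratios by age shows.

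**Figure D1:**
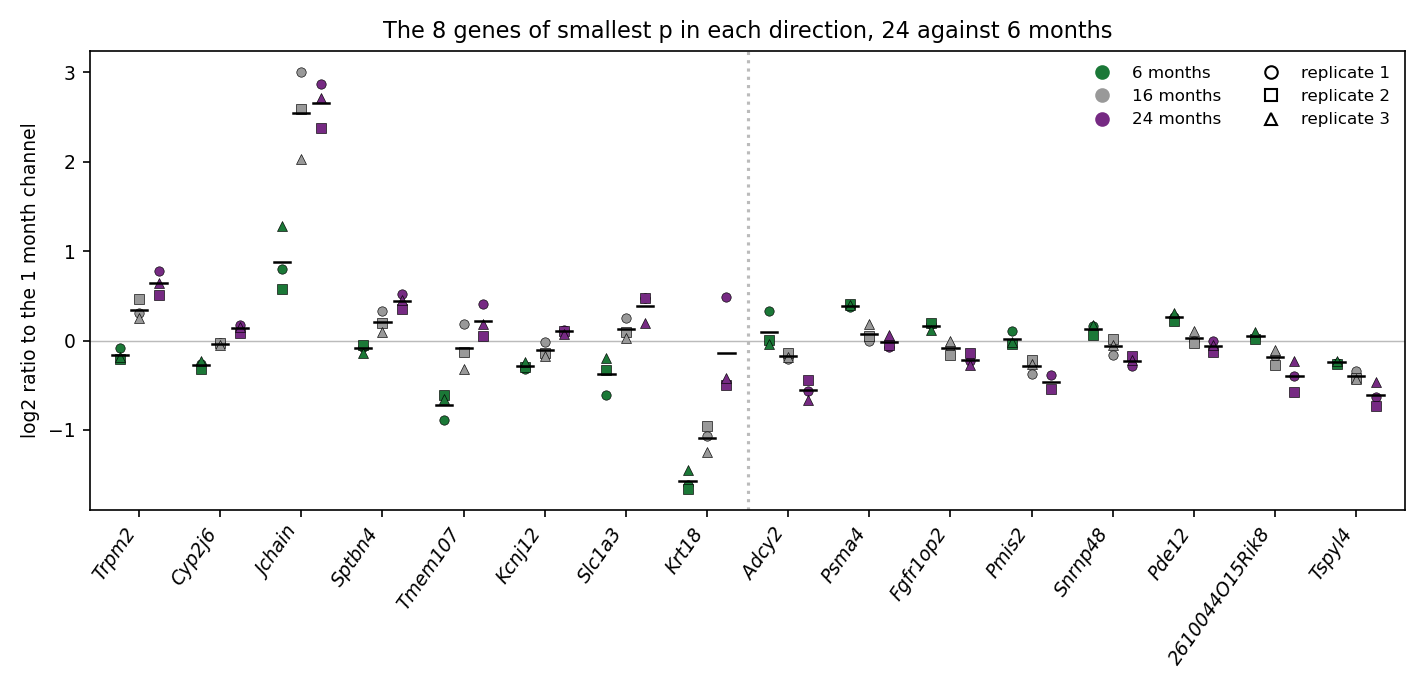
Log2 ratio to the 1 month channel (vertical axis) of the 8 genes with the smallest p in each direction for 24 against 6 months, by age (colour) and replicate (symbol), with a bar at each age's mean. Jchain has the largest difference, 1.77, and its 24 month arrays lie between 2.38 and 2.87, above the highest 6 month value of 1.28.

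Grouped by function, the genes of other immune cells and of the epithelium had more members apart upward than the 6.28% of all genes. Some lists had 20% to 33.3% of their members apart downward, against 9.94% of all genes. They were the mitochondrial ribosome, the respiratory complexes, replication-dependent histones, antioxidant defence, chromatin remodelling and the double-positive stage. Of the 43 gene lists and 2 probe groups, immunoglobulin probes had the highest share upward and the mitochondrial ribosome the highest share downward. These counts describe lists chosen with earlier results of the same arrays known.

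**Figure D2:**
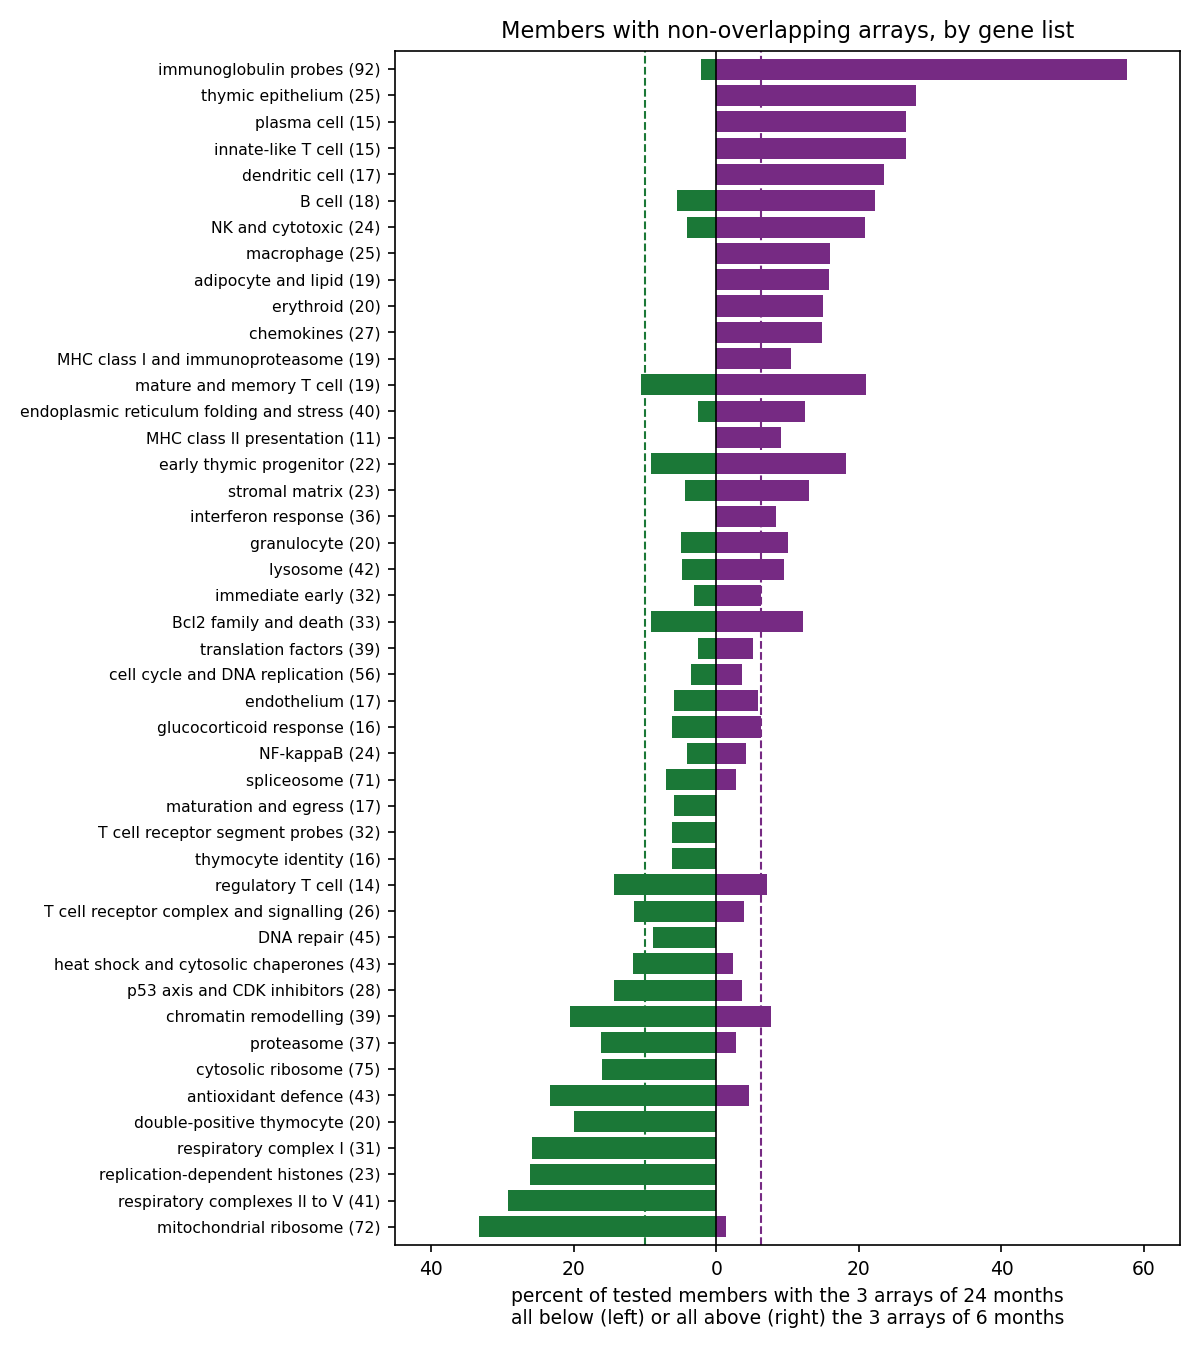
Percent of tested members of each gene list (number tested in brackets) whose 3 arrays of 24 months lay all below (left, green) or all above (right, purple) the 3 arrays of 6 months. The dashed lines are the shares over all 15317 tested genes, 9.94% below and 6.28% above. Immunoglobulin probes reach 53 of 92 above, and mitochondrial ribosome genes 24 of 72 below.

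Immunoglobulin transcripts, the product of B cells and plasma cells, were the group furthest above the background. Of 103 probes whose description names an immunoglobulin heavy or light chain 92 were tested, and on 53 of them (against 5.75% of all probes) the 24 month arrays were all above the 6 month arrays, on 2 all below. At an unadjusted p under 0.05 were 45 higher and 1 lower, and the median difference was 0.75. Many of these probes match near-identical gene segments, so they count signal of a family and not of separate genes. A probe for a kappa light chain of the V-V class, A_51_P115601, had the largest difference, with log2 ratios of 0.52, -1.08 and -0.20 at 6 months and of 2.66, 3.11 and 3.65 at 24 months, 10.5-fold apart as measured, but its Cy3 signal cleared background on only 1 of the 6 month arrays. A probe for a heavy chain V region, A_51_P311235, stood at 2.75, 1.41 and 2.20 at 6 months and at 5.11, 5.66 and 4.85 at 24 months, 8.5-fold apart. These probes were chosen after their values were seen. The group was higher on each of the 24 month mice: on replicates 1, 2 and 3 respectively 75, 66 and 66 of the 92 probes lay above all 6 month arrays, where 22.6%, 26.4% and 26.5% of all probes did. Below all 6 month arrays lay 3, 8 and 5 of them, where 30.7%, 40.1% and 27.3% of all probes did. The first of these mice is the mouse without raised haemoglobin, but it is 1 mouse, and the part of haemoglobin in the group was not tested. With haemoglobin as a covariate 23 probes were higher at an unadjusted p under 0.05 and the median was 0.51. The count was 23 without replicate 1 of 24 months and 25 without replicate 2 of 6 months.

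Jchain, the joining chain that links the units of secreted IgM and IgA, had the largest difference among the 8 genes with the smallest p upward. Its log2 ratios were 0.80, 0.58 and 1.28 at 6 months and 2.87, 2.38 and 2.72 at 24 months, 1.77 apart (SE 0.27), or 3.42-fold, with a limma adjusted p of 0.331 and the same direction on both of its probes. No 24 month mouse overlapped with a 6 month mouse. Tnfrsf17, the survival receptor BCMA of plasma cells, stood at -0.27, -0.31 and -0.19 against 0.11, 0.28 and 0.34. Of 15 plasma cell genes tested, 4 had arrays apart upward and 0 downward, the other members being Derl3 and Mzb1 of the secretory machinery. The plasma cell median difference was 0.22 against -0.014 for all genes. Of 18 tested B cell genes 4 were apart upward and 1 downward, with a median difference of 0.06. The adaptor Blnk of the B cell receptor stood at -0.10, -0.42 and 0.03 at 6 months and at 1.30, 0.18 and 1.14 at 24 months. The B cell genes thus differed by less than the immunoglobulin and plasma cell genes, a contrast that was not tested.

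Chemokines and genes of cytotoxic and innate-like lymphocytes also had more members apart upward than all genes did. Ccl5, a chemokine that memory and cytotoxic T cells and natural killer (NK) cells store and release, had log2 ratios of -0.35, -0.59 and -0.35 at 6 months and of 1.65, 0.41 and 1.51 at 24 months. All 24 month arrays were above all 6 month arrays, with replicate 2 the lowest, and the difference was 1.62 (SE 0.39), or 3.08-fold, with a limma adjusted p of 0.422. Ccl3, a chemokine of activated lymphocytes and macrophages, stood at 0.02, 0.27 and 0.00 against 0.87, 1.27 and 0.80, with replicate 2 the highest. Its Cy3 signal cleared background on only 1 array of 6 months, so Ccl3 entered the test through the age where it is high and, though counted, is no support for its lists. Klrk1, the activating receptor NKG2D, stood at 0.31, 0.78 and 0.00 against 1.39, 1.55 and 1.31, 2.08-fold. Of 24 NK and cytotoxic genes 5 were apart upward and 1 downward, and the latter was the receptor gene Klrg1, at 0.26, 0.12 and 0.07 against -0.34, -1.24 and -0.40. The pore-forming gene Prf1 was also lower, at 0.29, -0.20 and 0.10 against -0.76, -0.76 and -0.18, with overlapping arrays, so the list did not run one way. Of 27 chemokine genes 4 were apart upward and 0 downward, with a median difference of 0.25. At an unadjusted p under 0.05 were 5 of them, 14 without replicate 2 of 24 months, 2 without replicate 1 of 24 months and 3 without replicate 3 of 24 months or replicate 2 or 3 of 6 months.

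Among 15 innate-like T cell genes, which mark cells that respond without classical priming, 4 were apart upward and 0 downward, with a median difference of 0.36. Cd160 stood at -0.42, -0.32 and -0.21 at 6 months and at -0.01, 0.25 and -0.07 at 24 months. The cytokine gene Il17a stood at -0.10, -0.18 and 0.20 against 0.64, 0.08 and 0.62, where replicate 2 lay within the 6 month range. Of 19 genes of mature and memory T cells 4 were apart upward and 2 downward. Ccr2, a chemokine receptor of circulating effector cells and monocytes, stood at 0.32, 0.39 and 0.43 against 1.22, 0.54 and 1.30. S100a6, a calcium-binding protein that is high in memory cells, stood at 0.51, 0.46 and 0.72 against 2.13, 0.83 and 1.31, a difference of 0.86 (SE 0.32). In both the 24 month replicate 2 was nearest to the 6 month mice.

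MHC class II genes, by which dendritic cells, B cells, macrophages and thymic epithelium show antigen to CD4 T cells, separated the 24 month mice from each other. On replicate 1 all 11 tested members lay above all 6 month arrays, where 25% of all genes did, and on replicate 3 it was 10 of 11, where 27.5% did. On replicate 2 only 1 of 11 lay above and 9 lay below all 6 month arrays, where 40.6% of all genes did. The beta chain H2-Ab1 stood at 0.69, 0.26 and 0.21 at 6 months and at 2.04, 0.21 and 1.28 at 24 months. The invariant chain Cd74, which escorts class II molecules, stood at 0.58, 0.22 and 0.19 against 2.12, 0.04 and 1.63. Cathepsin S (Ctss), which trims that chain, stood at -0.80, -0.95 and -0.46 against 1.12, -1.0 and 0.48. H2-Eb1 followed the same order, with 0.72, 0.43 and 0.31 against 2.04, 0.33 and 1.39. These members beyond H2-Oa and H2-Eb1 were picked after their values were seen. Over all 3 mice the median difference of the list was 0.65, with 1 member apart upward, H2-Oa, whose second probe ran the other way, and 0 downward. Without replicate 2 of 24 months the median was 1.21 and 8 of 11 stood at an unadjusted p under 0.05, against 1 of 11 with it. That setting leaves out the 24 month mouse with the lowest class II median. Its values therefore describe the other mice of that age and not the age as a whole. Replicate 2 also had the lowest Cy3 signal. Its median after subtraction of local background was 61.2 scanner units, against 77.1 to 175 on the other arrays of these ages. The part of this low signal in the result was not tested.

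**Figure D3:**
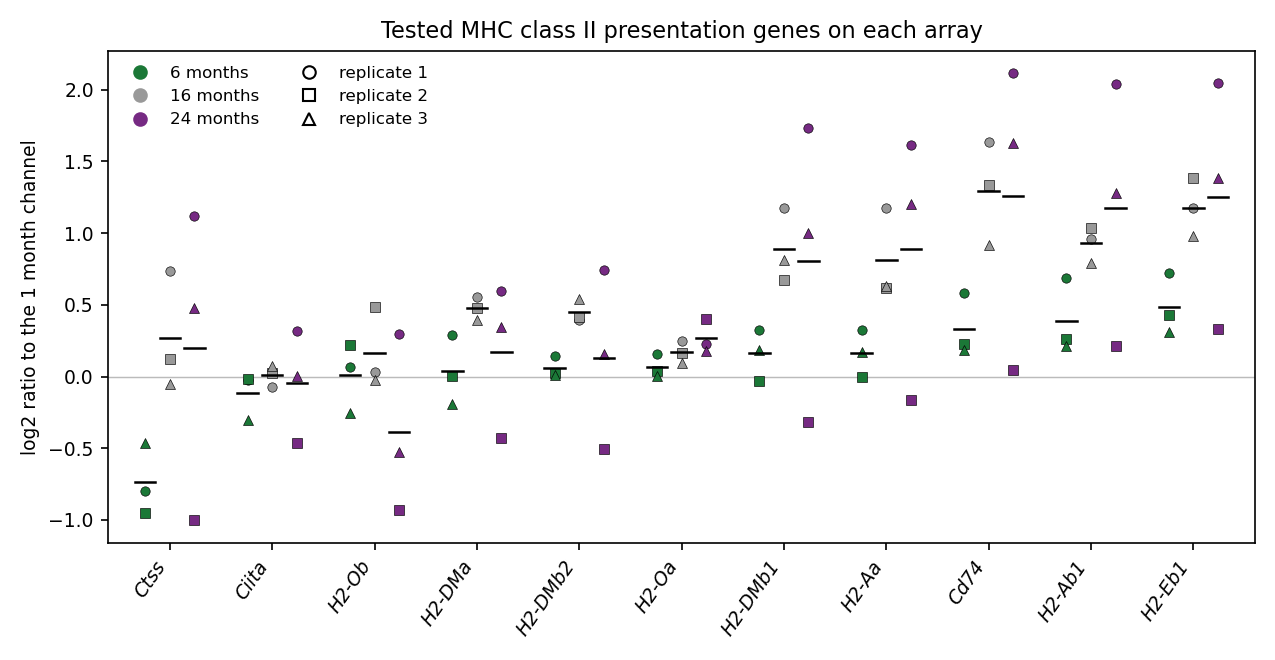
Log2 ratio to the 1 month channel (vertical axis) of the 11 tested MHC class II presentation genes, by age (colour) and replicate (symbol), with a bar at each age's mean. For Cd74 the 24 month replicates 1 and 3 lie at 2.12 and 1.63 and replicate 2 at 0.04, below all 6 month arrays.

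Class II promoters share a box bound by the factor NF-Y, the Y box, next to the site of the class II regulator RFX. It was searched as CTGATTGG on both strands in RefSeq windows from 250 bases before to 50 after the start site (GRCm38.p6). A window was given for 8 of the 11 tested genes, and 3 of these 8 (37.5%) held the box, against 4.7% of 27025 genes. A like share, 13 of 35 (37.1%), was found for genes of folding in the endoplasmic reticulum. A gene counts where any of its windows holds the box. The stretches around it in these 3 genes are shown, as examples of the element in this family, 5′ to 3′ on the gene's strand, with the box in capitals.
H2-Aa, chr17:34287852-34287889, minus strand: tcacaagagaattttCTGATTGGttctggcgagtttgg
H2-Eb1, chr17:34305790-34305827, plus strand: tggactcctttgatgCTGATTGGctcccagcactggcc
H2-Oa, chr17:34092318-34092355, plus strand: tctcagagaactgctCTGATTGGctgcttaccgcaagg
The box begins 51, 62 and 46 bases before the start site. H2-Aa, an alpha chain, stood at 0.33, 0.00 and 0.17 at 6 months and at 1.62, -0.16 and 1.2 at 24 months, so that it split the 24 month mice as H2-Eb1 did, while H2-Oa, part of an inhibitor of peptide loading, stood at 0.16, 0.04 and 0.00 against 0.22, 0.40 and 0.18, highest on replicate 2.

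MHC class I genes and the immunoproteasome, which cuts the peptides they present, were above 0 for all 19 tested members, with differences of 0.04 to 0.60, while 45.9% of all genes were above 0. The median difference was 0.25, and -0.016 when arrays were centred on their medians. Arrays were apart upward for 2 members, Psmb9 and H2-T22, and downward for 0. The immunoproteasome subunit Psmb9 stood at 0.06, 0.01 and -0.01 at 6 months and at 0.41, 0.08 and 0.32 at 24 months, but its difference was -0.077 under median centring. H2-D1, a classical class I heavy chain, stood at 0.78, 0.48 and 0.10 against 1.58, 0.62 and 0.94, with overlap through replicate 2. Several class I probes match near-identical genes of the family, so their values are not independent.

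Genes of dendritic cells and macrophages, which present antigen and clear dying thymocytes, leaned upward on replicates 1 and 3 of 24 months, while replicate 2 was mixed. Of 17 dendritic cell genes 4 were apart upward and 0 downward, with 16 of 17 differences above 0 and a median of 0.12. On replicates 1 and 3, 13 and 10 of the 17 lay above all 6 month arrays, where 25% and 27.5% of all genes did, and 1 below on each. On replicate 2, 6 lay above and 7 below, where 26.2% and 40.6% of all genes did. Xcr1, the receptor that marks cross-presenting dendritic cells, stood at -0.13, -0.08 and -0.05 at 6 months and at 0.27, 0.15 and 0.31 at 24 months, 0.33 apart (SE 0.08), in the same direction on both probes. The lectin Clec10a stood at -0.05, -0.30 and 0.10 against 0.46, 0.29 and 0.39. Of 25 macrophage genes 4 were apart upward and 0 downward, with a median of 0.26. Above all 6 month arrays lay 17, 6 and 13 of the 25 on replicates 1, 2 and 3, and below them 2, 8 and 2. Adgre1, the F4/80 marker, stood at -0.31, -0.30 and -0.11 against 0.15, 0.22 and 0.08, and the lysozyme Lyz1 at -0.14, -0.02 and -0.08 against 1.64, 0.49 and 0.80. Lyz1 has a near-identical paralog, Lyz2, and their probes may share signal. The macrophage count at an unadjusted p under 0.05 was 5 of 25, 12 without replicate 2 of 24 months, and 3 without replicate 1 of 24 months or replicate 1 or 2 of 6 months.

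Il1b, an inflammatory cytokine of macrophages and granulocytes, stood at -0.70, -1.19 and -0.63 at 6 months and at 1.31, -0.14 and 0.43 at 24 months. The groups did not overlap, and the difference of 1.38 (SE 0.37) is 2.59-fold with a limma adjusted p of 0.447. The granulocyte list did not follow it: of 20 members 2 were apart upward and 1 downward, and the median was -0.08. Among 42 lysosomal genes 4 were apart upward and 2 downward. Cd63, a membrane protein of lysosomes, stood at -0.13, -0.10 and -0.11 against 0.08 and 0.63 on the 2 arrays of 24 months that measured it. The lysosomal median was 0.08, and -0.08 under median centring. Interferon response genes had 3 of 36 apart upward and 0 downward, with Oasl2, an antiviral synthetase relative, at -1.37, -1.53 and -1.47 against 0.20, -1.33 and -0.30.

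The thymic epithelium list had the second highest share upward. Of 25 tested members 7 were apart upward and 0 downward, 22 differences were above 0, and the median was 0.21. Krt18, a keratin of simple epithelium, had log2 ratios of -1.61, -1.66 and -1.45 at 6 months and of 0.49, -0.50 and -0.42 at 24 months. The 6 month ratios were thus all below those of 24 months, while their level against 1 month may hold a dye effect. The difference of 1.43 (SE 0.24) is 2.69-fold with a limma adjusted p of 0.331. Trp63, the transcription factor that maintains epithelial progenitors, stood at -0.50, -0.52 and -0.60 against 0.38, 0.08 and -0.14 on its brighter probe, while its other probe ran the opposite way. The keratins Krt8, at -0.46, -0.50 and -0.52 against 0.39, -0.33 and -0.26, and Krt5, at -0.05, -0.09 and -0.06 against 0.33, 0.10 and 0.01, were likewise apart. Foxn1, the master regulator of the epithelium, stood at 0.01, 0.01 and -0.02 against -0.11, 0.08 and -0.14. Aire, which lets medullary epithelium show tissue antigens, stood at -0.18, -0.39 and -0.61 against -0.03, -0.53 and -0.28, and the arrays of both overlapped. Krt8, Krt5, Foxn1 and Aire were picked after their values were seen.

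Replicate 1 of 24 months carried the highest epithelial values, with 19 of 25 members above all 6 month arrays, against 11 and 14 on replicates 2 and 3, where 25%, 26.2% and 27.5% of all genes did. On replicate 2 another 6 lay below all 6 month arrays, and its list median of -0.214 was below the lowest of 6 months, -0.207, against 0.09 and -0.07 on replicates 1 and 3. Without replicate 2 the count at an unadjusted p under 0.05 was 12 of 25, against 6 with it, and it was 4 without replicate 1 and 3 without replicate 1 of 6 months. Replicate 1 was also high in stroma and fat markers. The mean of Dcn, Col1a1 and Col3a1 was 0.25, 0.32 and 0.28 at 6 months and 1.09, 0.29 and 0.33 at 24 months, and the mean of Adipoq, Fabp4 and Plin1 was -0.03, 0.01 and 0.12 against 0.74, 0.16 and 0.15. A single gene carried each mean on replicate 1, the proteoglycan gene Dcn with 2.92, 0.89 and 1.15 at 24 months and the fatty acid carrier Fabp4 with 1.87, -0.23 and -0.03, while Col1a1 and Plin1 differed by 0.00 and -0.04. All 6 markers were well above background, and their part in the epithelial values was not tested. In the stromal matrix list 3 of 23 were apart upward and 1 downward. Serping1, counted among the 3, entered the test only through the 24 month arrays, where it is high. It is therefore no support for the list. In the fat list 3 of 19 were apart upward, with Cfd, the adipocyte protease adipsin, at -0.04, -0.12 and -0.57 against 0.21, 0.90 and 0.63. Of 17 endothelial genes 1 was apart in each direction. Of 20 red cell genes 3 were apart upward and 0 downward, and Alas2, which starts haem synthesis, stood at -1.18, -1.08 and -0.94 against -0.90, 0.59 and 1.52, highest on the arrays with high haemoglobin. Some genes named in the other groups were near background on part of the arrays, Klrk1 and Il1b on 1 array of 6 months, Klrg1, Prf1, Il17a and Foxp3 on 1 of 24 months, Oasl2 and Cfd on 1 of each age, and Erg on 2 of 6 months and 1 of 24 months, and their values are less firm for it.

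Most tested genes of the mitochondrial ribosome and the respiratory complexes had lower means at 24 months, mostly by small amounts. The mitochondrial ribosome builds the proteins that mitochondrial DNA encodes, and the respiratory complexes, made in part from those proteins, pass electrons to oxygen and drive ATP synthesis. Of 72 tested mitochondrial ribosome genes 24 were apart downward, against 9.94% of all genes, and 1 upward. At an unadjusted p under 0.05 were 22 lower and 0 higher. Of the 72 differences 58 were below 0 and 14 above, where 45.9% of all genes were above 0. The differences ran from -0.48 to 0.77 around a median of -0.15. Mrpl48 of the large subunit stood at 0.00, -0.03 and -0.06 at 6 months and at -0.43, -0.34 and -0.19 at 24 months, a difference of -0.29 (SE 0.07) with a limma adjusted p of 0.438. Mrpl21 stood at 0.03, 0.12 and 0.31 against -0.13, -0.29 and -0.09, a difference of -0.32 (SE 0.09). No 24 month array of either gene overlapped with the 6 month arrays. On replicates 1, 2 and 3 of 24 months 49, 46 and 27 of the 72 lay below all 6 month arrays, where 30.5%, 40.6% and 26.2% of all genes did. The count at an unadjusted p under 0.05 was 9 without replicate 2 of 24 months, 11 without replicate 1, 11 without replicate 3 of 6 months and 12 without replicate 2 of 6 months. With the Cy3 channel alone, quantile normalized and without the 1 month channel, it was 0 of 72, at a median of -0.11.

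Of 31 complex I genes, the entry of electrons from NADH, 8 were apart downward and 0 upward, with a median of -0.19. Ndufa6 stood at -0.13, -0.08 and 0.14 at 6 months and at -0.29, -0.53 and -0.35 at 24 months, a difference of -0.36 (SE 0.10). Ndufb3, with 1 spot of 6 months marked as an outlier, stood at -0.10 and 0.16 against -0.46, -0.45 and -0.37. Of 41 genes of complexes II to V 12 were apart downward and 0 upward, with a median of -0.11. The cytochrome oxidase subunit Cox6b1 stood at 0.16, 0.25 and 0.13 against -0.19, -0.21 and -0.07, and Cox7c at -0.66, -0.35 and 0.01 against -0.87, -0.99 and -0.76. The 6 month arrays of Cox7c spread widely, and replicate 1 lay nearest to the 24 month values. Leaving out 1 mouse at a time gave 2 to 12 genes lower at an unadjusted p under 0.05 in either list, against 6 in each. The 16 month medians differed from 6 months by -0.07 for complex I, -0.10 for complexes II to V and -0.01 for the mitochondrial ribosome.

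**Figure D4:**
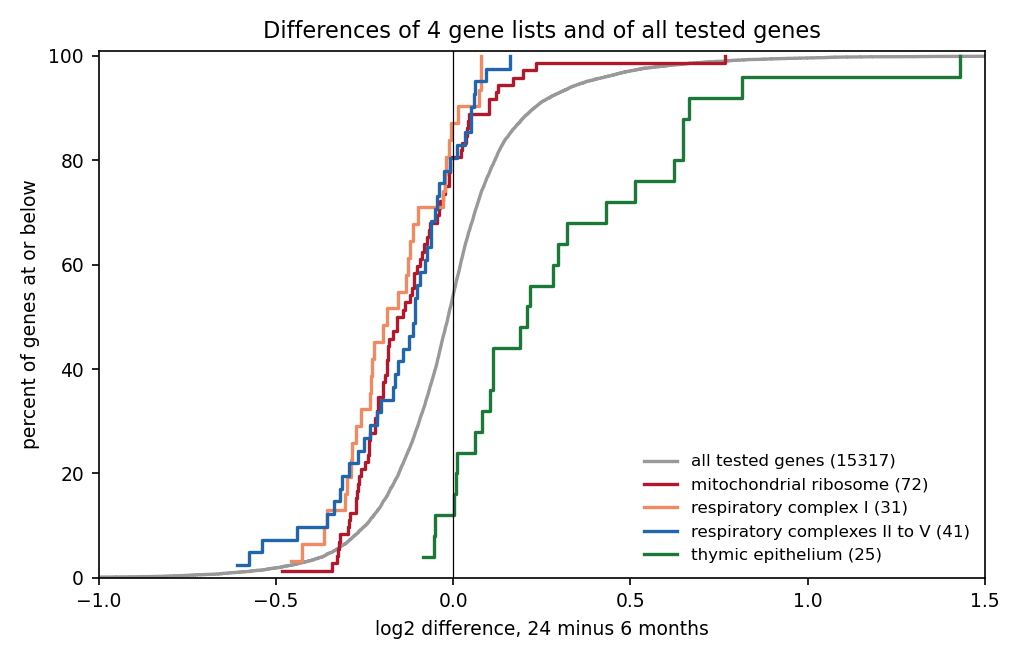
Percent of genes (vertical axis) with a log2 difference, 24 minus 6 months, at or below the value on the horizontal axis, for all 15317 tested genes and 4 gene lists. The curves of the mitochondrial ribosome and the respiratory complexes lie left of that of all genes (median -0.014), and that of the thymic epithelium list lies right of it (median 0.21).

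Nuclear genes for mitochondrial proteins often carry binding sites of ETS factors near their start. CCGGAAG, the core of an ETS site, was found on either strand in the promoter window of 24 of 64 matched mitochondrial ribosome genes (37.5%), against 9.93% of all 27025 genes. Shares were as high for genes of the proteasome, 14 of 31 (45.2%), and of the spliceosome, 24 of 62 (38.7%), and lower for complex I, 2 of 27 (7.41%). Of the 21 matched members that were apart downward 6 (28.6%) held the ETS core, so it did not set them apart from the rest of the list by these counts, which were not tested. The stretches of members apart downward with the core before the start are shown 5′ to 3′ on the gene's strand, with the core or its reverse complement in capitals.
Mrpl48, chr7:100583143-100583179, minus strand: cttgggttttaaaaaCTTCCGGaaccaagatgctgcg
Mrpl22, chr11:58171596-58171632, plus strand: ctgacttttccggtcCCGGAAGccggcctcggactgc
Mrpl34, chr8:71464874-71464910, plus strand: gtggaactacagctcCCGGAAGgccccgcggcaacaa
The core begins 34, 53 and 37 bases before the start site. Mrpl22 stood at -0.10, -0.02 and 0.24 at 6 months and at -0.29, -0.34 and -0.14 at 24 months, and Mrpl34 at 0.03, 0.14 and 0.00 against -0.12, -0.03 and 0.00, so that its ages were barely apart.

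Replication-dependent histone genes, transcribed when DNA is copied, also had more members apart downward than the 9.94% of all genes. Of 23 tested members 6 were apart downward and 0 upward, with a median of -0.25, and -0.0088 with haemoglobin as a covariate. On replicates 1, 2 and 3 of 24 months, 13, 11 and 16 of the 23 lay below all 6 month arrays, where 30.5%, 40.6% and 26.2% of all genes did. The list median was 0.18, 0.21 and -0.38 on these arrays, against 0.22, 0.17 and 0.43 at 6 months. Only that of replicate 3 was thus below the 6 month range. H2ac6 stood at 0.088, 0.155 and 0.241 at 6 months and at -0.41, -0.09 and -0.38 at 24 months, and H2ac8 at -0.16, -0.13 and 0.52 against -0.54, -0.52 and -0.65. Both are H2A genes of a cluster of near-identical copies, so their signal may be shared. Genes of the cell cycle and DNA replication did not show this direction as a list, with 2 of 56 apart upward, 2 downward and a median of 0.01. That median joins 24 month mice that went opposite ways. On replicate 1, 40 of 56 lay below all 6 month arrays, where 30.5% of all genes did, and 4 above. On replicate 2, 38 lay above, where 26.2% of all genes did, and 4 below. On replicate 3, 10 lay above and 20 below, where 27.5% and 26.2% of all genes did.

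Of 37 proteasome genes 6 were apart downward (16.2%, against 9.94% of all genes) and 1 upward, with a median of -0.06. The 24 month mice differed in this list. On replicates 1, 2 and 3, 25, 23 and 12 of the 37 lay below all 6 month arrays, where 30.5%, 40.6% and 26.2% of all genes did. Above them lay 2, 5 and 13, where 25%, 26.2% and 27.5% of all genes did. The list median was -0.05, -0.05 and 0.13 on these arrays, against 0.07, 0.11 and 0.07 at 6 months. Besides Psma4, Psmc6 of the regulatory cap stood at -0.12, -0.10 and 0.13 against -0.44, -0.48 and -0.40, a difference of -0.41 (SE 0.09). Of 43 antioxidant genes 10 were apart downward and 2 upward. Glrx3, a glutaredoxin of iron-sulfur handling, stood at -0.29, -0.18 and -0.04 against -0.59, -0.66 and -0.46. Gstm1, a glutathione transferase, stood at -0.252, -0.145 and -0.149 against 0.45, 0.04 and 0.27, with 1 of its 2 probes in that direction. Of 75 cytosolic ribosome genes 12 were apart downward and 0 upward, but 46 of them had a saturated probe on at least 1 array and give no firm ratio. Chromatin remodelling genes were apart downward for 8 of 39 and upward for 3, with the Polycomb gene Suz12 at -0.16, -0.16 and -0.06 against -0.42, -0.32 and -0.45. Spliceosome genes were apart for 5 of 71 downward (7.04%) and 2 upward, and DNA repair genes for 4 of 45 downward (8.89%). Both shares lay below the 9.94% of all genes. Chaperones were apart for 5 of 43 downward (11.6%), near that share, and 1 upward.

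Among thymocyte genes the double-positive list had the highest share apart downward. Of the 16 identity genes 1 was apart downward, Themis, which is needed for positive selection, at -0.02, 0.08 and 0.10 at 6 months and at -0.25, -0.30 and -0.05 at 24 months. The median of the list was -0.03. Of 20 double-positive genes 4, Themis among them, were apart downward (20%, against 9.94% of all genes) and 0 upward. Of their differences 16 were below 0, and the median was -0.05. On replicates 1, 2 and 3 of 24 months 8, 13 and 7 of the 20 lay below all 6 month arrays, where 30.5%, 40.6% and 26.2% of all genes did, and 1, 0 and 5 above. The list medians of 0.16, 0.16 and 0.20 lay within the 6 month range of 0.14 to 0.33. Rmnd5a stood at 0.23, 0.26 and 0.41 against 0.01, 0.00 and 0.17, in the same direction on all 3 of its probes. Rag2, which with Rag1 cuts the receptor genes, stood at 0.20, 0.06 and 0.04 against -0.11, 0.07 and -0.12, with overlap. Of 32 T cell receptor segment probes 2 were apart downward and 0 upward, at a median of -0.04, and of 26 genes of receptor signalling 3 downward and 1 upward. The adaptor Grap2 stood at 0.22, 0.11 and 0.17 against -0.05, -0.16 and -0.05, with its 3 probes in the same direction.

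Early progenitor genes had 4 of 22 apart upward and 2 downward. Erg, a transcription factor of stem and early T cells that endothelium also uses, stood at -0.34, -0.73 and -0.14 against 0.38, 0.52 and 0.31, a difference of 0.80 (SE 0.17). Hoxa9, counted among the 2 downward, was well above background in Cy3 on 2 arrays of 6 months and on 0 of 24 months, so no difference is given for it. Foxp3, the master regulator of regulatory T cells, stood at -0.10, -0.32 and -0.33 against -0.50, -0.62 and -0.35, and its difference of -0.24 (SE 0.10) was 0.11 under median centring. Of 28 genes of the p53 axis 1 was apart upward and 4 downward, and of 33 genes of the Bcl2 family and death 4 upward and 3 downward. Pmaip1, the death activator Noxa, stood at -0.63, -0.65 and -0.44 against 0.48, -0.33 and 0.30, a difference of 0.73 (SE 0.26). The egress list of 17 genes had 0 apart upward and 1 downward, Gimap6, at 0.13, 0.09 and -0.05 against -0.07, -0.49 and -0.24. The 24 month mice differed in this list. On replicates 1 and 3, 9 and 8 of the 17 lay above all 6 month arrays, where 25% and 27.5% of all genes did, and 1 and 2 below. On replicate 2, 12 lay below, where 40.6% of all genes did, and 1 above.

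Several groups high at 24 months also had higher medians at 16 months than at 6 months. The median difference of 16 from 6 months was 1.04 for immunoglobulin probes, 0.47 for plasma cell genes, 0.54 for MHC class II and 0.32 for class I. For thymic epithelium it was 0.09 and for the stromal matrix 0.04, and Krt18 stood at -1.07, -0.95 and -1.24 at 16 months, between the other ages. These comparisons share the 6 month arrays, so their likeness is not a separate result. The map of list medians by array shows how uneven the 24 month mice were. For class II the list median was 1.12, -0.32 and 0.48 on replicates 1, 2 and 3, and for interferon genes 0.20, -0.48 and -0.05.

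**Figure D5:**
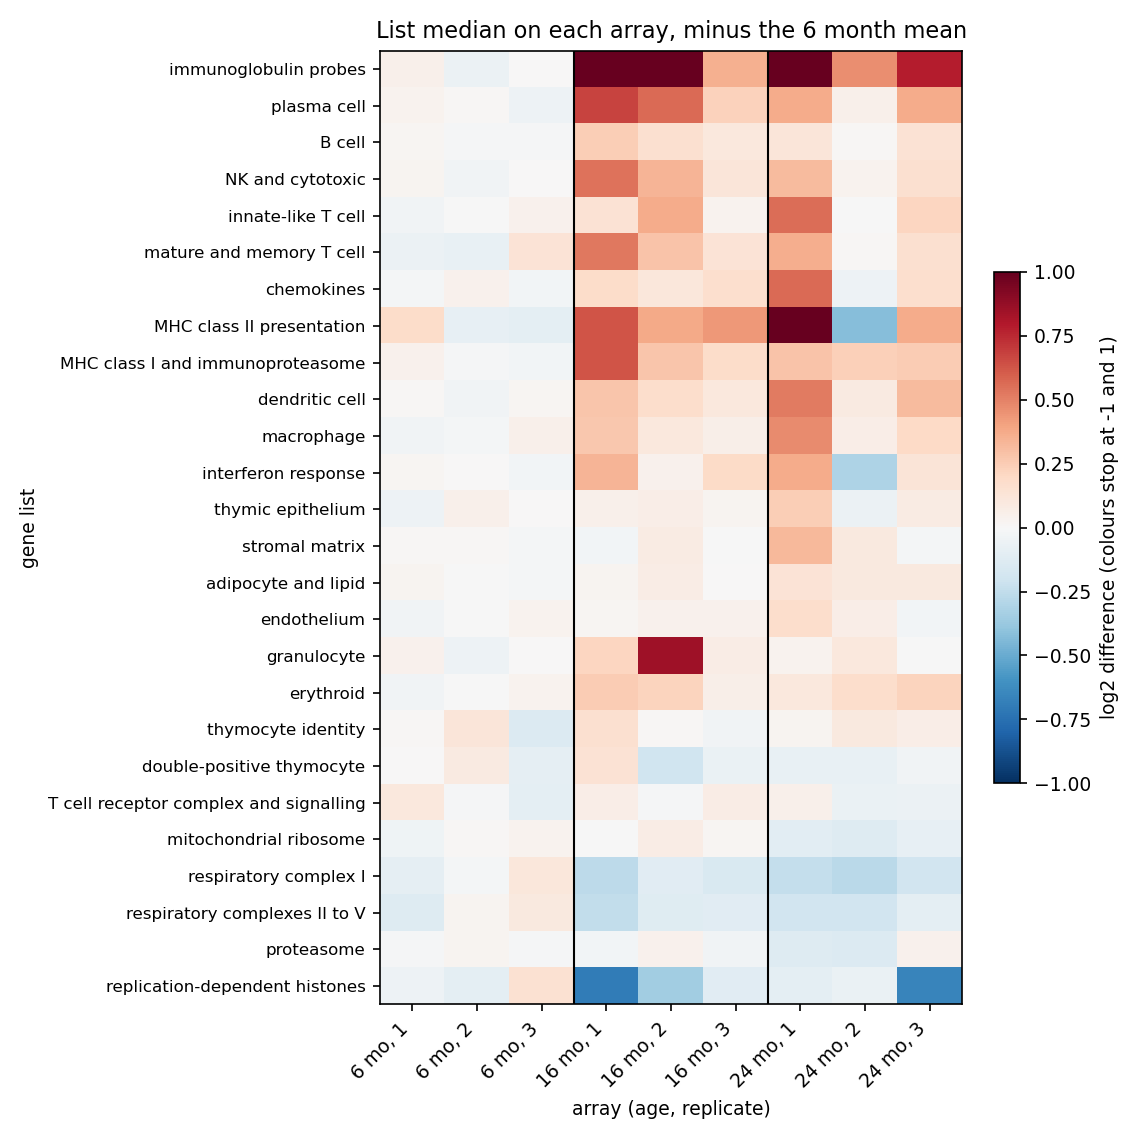
Median log2 ratio of 26 gene lists (rows) on each of the 9 arrays (columns, by age and replicate), minus the mean of the 3 medians of 6 months, as colour from blue (lower) to red (higher) with the scale ending at -1 and 1. Immunoglobulin probes are red on all arrays of 16 and 24 months, whereas MHC class II genes are red on replicates 1 and 3 of 24 months and blue on replicate 2.

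A few genes were well above background at only 1 of the ages. A probe not well above background on any array of an age has only a bound there, and the fold is then that of the Cy3 signals themselves, scaled between arrays, with each dim array taken at no less than its lowest signal well above background. Such a bound is on a different scale from the log2 ratios to the 1 month channel, and is open to dye bias. Slc22a3, an organic cation transporter, was not well above background at 6 months and was at least 2.95-fold higher at 24 months (limma adjusted p = 0.456). The reverse held for 5 genes that were not well above background at 24 months. The nuclear export gene Nxf7 was at least 2.21-fold lower, the kallikrein pseudogene Klk1b7-ps at least 1.76-fold, the zona pellucida gene Zp2 at least 1.75-fold, the formin Fhod3 at least 1.66-fold and the lipogenic gene Thrsp at least 1.51-fold lower, with limma adjusted p values of 0.419 to 0.46. Those p values belong to the log2 ratios, whose differences were 1.39 for Slc22a3, -0.79 for Nxf7, -0.76 for Klk1b7-ps, -0.75 for Zp2, -0.65 for Fhod3 and -0.86 for Thrsp. For all of these but Thrsp that difference is smaller than the bound in Cy3, so the bound does not hold on the scale of the ratios. The replicate 2 array of 24 months was the dimmest in Cy3.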

How the data were processed

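RNA of thymocytes was hybridized to 9 2-colour Agilent arrays, read by the authors with Agilent Feature Extraction 7.5.1 per the file headers (7.1 per the submitters' processing notes). The deposited scanner files hold intensity values per feature: processed signals that were background-subtracted and normalized between dyes by LOWESS (smooth factor 0.25), per the file headers, beside raw mean signals and local background. The deposited value table gives a score for each channel, and a check showed that it equals the log10 processed signal standardized within that channel. Each array has 43790 features, 41534 of them not controls, for 41174 probes.

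Log2 ratios of Cy3 to Cy5 processed signals were taken, outlier-marked spots removed and spots of a probe averaged. Replicates 1 and 3 of 24 months had 159 and 179 such spots and the others 34 to 52. Probes entered the test when either age had all 3 of its Cy3 signals, or both ages all 6 of their Cy5 signals, well above background. Symbols were updated through RefSeq tables, which named 21035 probes. For lists and named genes the brightest probe of a gene was used. One mean for each age was estimated from the 9 arrays in limma 3.58.1 (R 4.3.3; prior degrees of freedom 1.94, residual 6), two-sided, after a test on simulated data. The p-values measure the spread between these samples, 1 array a mouse. Tables and figures were made in Python 3.11.15 with pandas 2.3.3 and matplotlib 3.10.9.

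Named genes were, as no probe passed, the 8 with the smallest p in each direction among undimmed, unsaturated genes, up to 2 of the smallest p per list, and up to 6 given as bounds. Lists, members and this rule were chosen with earlier results of these data known. The 2 probe groups matched on descriptions were added after the data were seen, and genes outside the rule are marked in the text or are further members named beside a count. Of 1374 listed symbols 18 were renamed through synonyms and 121 had no matching probe. Alternatives covered background correction, dye normalization, the authors' scores, Cy3 alone, dim, saturated and outlier spots, the arrays fitted, haemoglobin, moderation, replicate numbers as a block, and leaving out each mouse. A few genes that the rule names are not reported here.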

Additional observations from a re-analysis of the deposited data

How the results depend on the processing

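The count of probes past the adjusted threshold was 0 in both directions under 19 of 21 settings, the reported one included. It was 1 higher with normexp background and loess on only the 6 and 24 month arrays, a setting added after the data were seen (a heavy chain V region probe, difference 3.13, adjusted p = 0.0398), and 1 lower without replicate 1 of 24 months (Crisp1, -1.28, adjusted p = 0.0383), so leaving out a mouse gave 0 to 0 higher and 0 to 1 lower. Unadjusted counts higher were 246 with median centring and 865 with the haemoglobin covariate, and those lower 969 with median centring and 1257 with Cy3 alone, against 1366 and 2035. Leaving out a mouse gave 1036 to 1914 higher and 1349 to 2917 lower, and without replicate 2 of 24 months the balance turned (1914 higher, 1349 lower). The replicate numbers do not pair the mice, and with a replicate block 1288 probes were higher and 2082 lower at an unadjusted p under 0.05, with 0 past the threshold. Median centring turned the sign of Pmis2 (0.094), Nfatc2 (-0.035), Hoxa9 (0.083), Foxp3 (0.105), Ikzf4 (-0.19), Bcl11a (-0.011), Psmb9 (-0.077), Cxcr2 (0.048), Lum (-0.032), Plvap (-0.048), Creld2 (-0.024), Junb (-0.076), Nfkbie (-0.043), Tat (-0.056) and Nfil3 (-0.015), and normexp with haemoglobin that of Alas2 (-0.21), of 96 named genes. Of the medians of the 43 gene lists 26 moved by more than the spread between mice under median centring, 9 without replicate 2 of 24 months, 7 with the authors' scores and 0 to 4 under each other setting. The cause was not tested. A block for the scan day was not run, because the headers used here give 1 extraction day and no scan day.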
